A study of Mus musculus with 6 samples.

Results

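N6-methyladenosine (m6A) is the most common internal modification of messenger RNA. It is added by a methyltransferase complex built around Mettl3 and Mettl14, removed by the demethylases Fto and Alkbh5, and read by YTH-domain proteins that influence splicing, translation and decay. Methylated sites are known to lie in groups along a transcript, often around the stop codon and in long exons, and many neuronal transcripts carry several of them. The regions described here are the places in brain tissue of Fto knockout mice where many short m6A-enriched stretches lay close together. There were 301 such multi-site clusters among 4310 clusters of 2 or more stretches on chromosomes 1 to 19. With 6343 single stretches also counted as clusters, the total was 10653. The multi-site clusters held 1797 of 18943 stretches.

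The series has 6 sequencing libraries from adult mice of C57BL/6 background that carry a global Fto knockout, 3 after m6A immunoprecipitation of RNA (MeRIP) and 3 of input RNA. Midbrain and striatum were the tissues, given as 1 neural tissue by the labels, and all libraries came from rRNA-depleted RNA. Controls with intact Fto were not analysed here, so nothing below bears on what the loss of Fto changes. All libraries share 1 deposited list of enriched regions with a chromosome, a start and an end, and without height, strand or value per library. The values below therefore have no replicate error, and the read depth behind them is unknown.

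A stretch is a run of listed rows that touch end to end, because the list divides any enriched run over 200 bp into rows of at most that length. Stretches at most 5000 bp apart were joined into a cluster. A multi-site cluster had 5 or more stretches, each under 600 bp, with its midpoint outside any aligned 100 kb window holding 20 or more rows and outside positions 37000000 to 38100000 of chromosome 18. Of 451 clusters with 5 or more stretches, 150 were left out. Among these, 66 only held a stretch of 600 bp or more, 45 only lay in a dense window, 31 had both properties, and 8 lay in the interval on chromosome 18. The same limits on length and position were applied to the 3442 clusters of 2 to 4 stretches used for comparison. Members were thus selected on the number, length and spacing of their stretches, so these values are given as a description and without a test.

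Positions are in mm9, counted from 1. Genes, exons and introns were not assigned, since no annotation or genome of that build was used here, and for the same reason no sequence is printed. Distances run along the genome, so an intron between 2 methylated exons is counted in a gap, and a cluster can cross from 1 gene into the next.

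The richest multi-site cluster had 11 stretches and lay on chromosome 17 at 23952801 to 23960675. From the lower to the higher coordinate its stretches were 225, 125, 175, 100, 300, 200, 400, 150, 175, 250 and 175 bp long. The gaps between them were 25, 375, 425, 875, 25, 1925, 175, 1125, 600 and 50 bp. Enrichment in it thus came as short patches 100 to 400 bp long that together covered 2275 bp, or 28.9%, of a span of 7875 bp. Its window held 19 rows, the most that the rule admits.

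Another 8 members had 10 stretches, and the first 4 in chromosome order show how differently the same number can be laid out. On chromosome 6 at 126588726 to 126595100, 10 stretches fell into a group of 4 and a group of 6, separated by 2650 bp. The other gaps there were 25 to 625 bp, and 34.1% of the 6375 bp span was covered. On chromosome 3 at 88620101 to 88629200, no stretch exceeded 200 bp, the median length was 112.5 bp, and 14.3% of 9100 bp was covered. Each of its 10 stretches was listed as a single row. On chromosome 7 at 134158701 to 134169975, gaps of 2700 and 3775 bp divided 10 stretches into groups of 4, 2 and 4. On chromosome 11 at 3023851 to 3037975, the 10 stretches were spread over 14125 bp with a median gap of 1475 bp. The longest of them, 475 bp, was the eighth along the cluster.

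**Figure D1:**
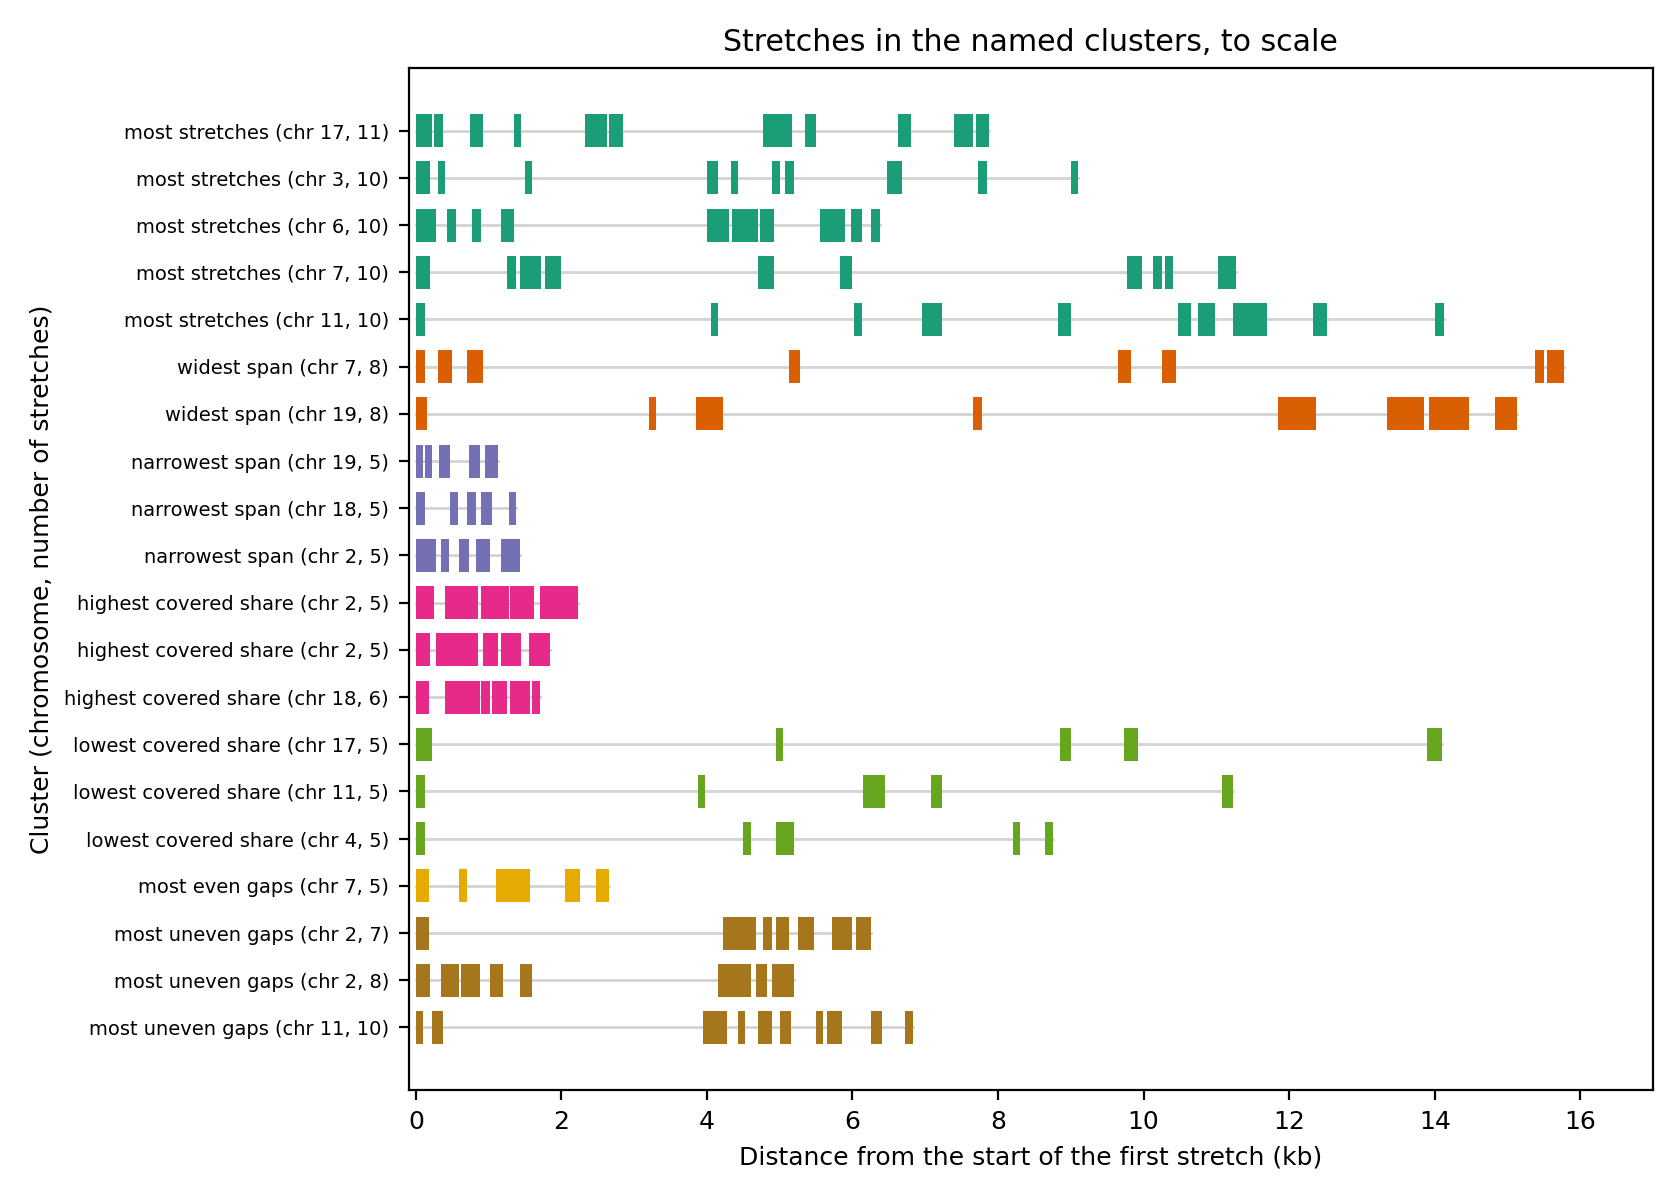
Stretches of enrichment (coloured blocks) in the members named by number of stretches, span, covered share and evenness of gaps, drawn to scale as distance in kb from the start of the first stretch, 1 cluster per line, with its chromosome and number of stretches in brackets. The 3 narrowest clusters lie within 1425 bp, while the widest reaches 15775 bp and is mostly gap.

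Span differed widely among the members. The narrowest cluster, on chromosome 19 at 5917701 to 5918825, held 5 stretches of 100, 100, 150, 150 and 175 bp within 1125 bp. The next narrowest spanned 1375 bp (chromosome 18, 89038676 to 89040050) and 1425 bp (chromosome 2, 65601851 to 65603275), each with 5 stretches. At the other end, the cluster on chromosome 7 at 53683001 to 53698775 spanned 15775 bp with 8 stretches. Gaps of 4200, 4375 and 4925 bp made up most of that length, and only 9.03% of it was covered. A cluster of 8 stretches on chromosome 19 at 47328051 to 47343175 spanned 15125 bp. Its 4 stretches at higher coordinates measured 525, 500, 550 and 300 bp with gaps under 1 kb, whereas the first 4 were separated by gaps of 3050, 550 and 3425 bp.

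The covered share, the percentage of a cluster's span that lies in stretches, ran from 6.21% to 86.5%. The most densely covered member lay on chromosome 2 at 31655751 to 31657975, where stretches of 250, 450, 375, 325 and 525 bp were parted by gaps of 150, 50, 25 and 75 bp. A second on chromosome 2, at 131820326 to 131822175, had 83.8% covered and also the most even gaps in the set (75, 75, 50 and 100 bp). The third, on chromosome 18 at 15220376 to 15222075, had 6 stretches with 79.4% of 1700 bp covered. Such members were close to continuous enrichment with narrow breaks. The sparsest member, on chromosome 17 at 34724326 to 34738425, had 5 stretches of 100 to 225 bp in 14100 bp, with gaps of 4725, 3800, 725 and 3975 bp. The covered share was 7.35% in the cluster of chromosome 11 at 79500076 to 79511300, and 7.71% in that of chromosome 4 at 43575001 to 43583750.

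Stretches in multi-site clusters and in smaller clusters had the same median length. In the former it was 200 bp (95% order-statistic interval 175 to 200, interquartile range 150 to 275, n = 1797), and for the 8593 stretches in clusters of 2 to 4 it was also 200 bp, with the same interquartile range. All lengths and gaps were whole multiples of 25 bp, so equal medians can be ties on this grid. With each cluster weighted equally, the median lengths were 187.5 bp in multi-site clusters and 200 bp in smaller ones. Over stretches, the means were 219.4 bp ± 107.2 (SD over stretches) and 218.2 bp ± 104.8. Stretches over 200 bp made up 40.2% (exact binomial 95% interval 38.0 to 42.5) against 40.4% (39.4 to 41.5). Stretches of 100 bp, the shortest in the list, made up 11.6% (10.2 to 13.2) against 11.3% (10.7 to 12.02). For stretches with no other within 5000 bp, under the same limits, the median was 175 bp and the mean 204.5 bp ± 98.5 (n = 6095). These intervals, and those below, cover counting error only and are too narrow, because stretches of 1 cluster may belong to the same transcript.

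Gaps had the same median as well. The median distance between neighbouring stretches was 300 bp in multi-site clusters (275 to 325, n = 1496 gaps) and 300 bp in clusters of 2 to 4 (275 to 300, n = 5151). Gaps of at most 100 bp were 25.4% (23.2 to 27.7) against 26.6% (25.4 to 27.8). Whether such narrow gaps part separate enriched regions or break up a single one was not tested. With rows within 100 bp merged, the median gap was 500 bp in both classes and 131 clusters met the rule. By number of stretches, the median gap was 300 bp at 2, 3, 4 and 5 stretches, 337.5 bp at 6, 275 bp at 7, 225 bp at 8, 300 bp at 9 and 312.5 bp at 10, with no steady rise or fall. Gaps of at most 25 bp were 6.89% (5.65 to 8.29) in multi-site clusters and 8.56% (7.81 to 9.36) in smaller ones, with intervals that overlap. The classes differed more at the upper end of the distribution. Gaps over 2000 bp were 10.4% (8.92 to 12.1) in multi-site clusters and 14.1% (13.1 to 15.1) in smaller ones, and the mean gaps were 734.1 bp ± 1032.2 (SD over gaps) and 821.2 bp ± 1160.3. The limit of 5000 bp truncates the gaps of both classes.

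**Figure D2:**
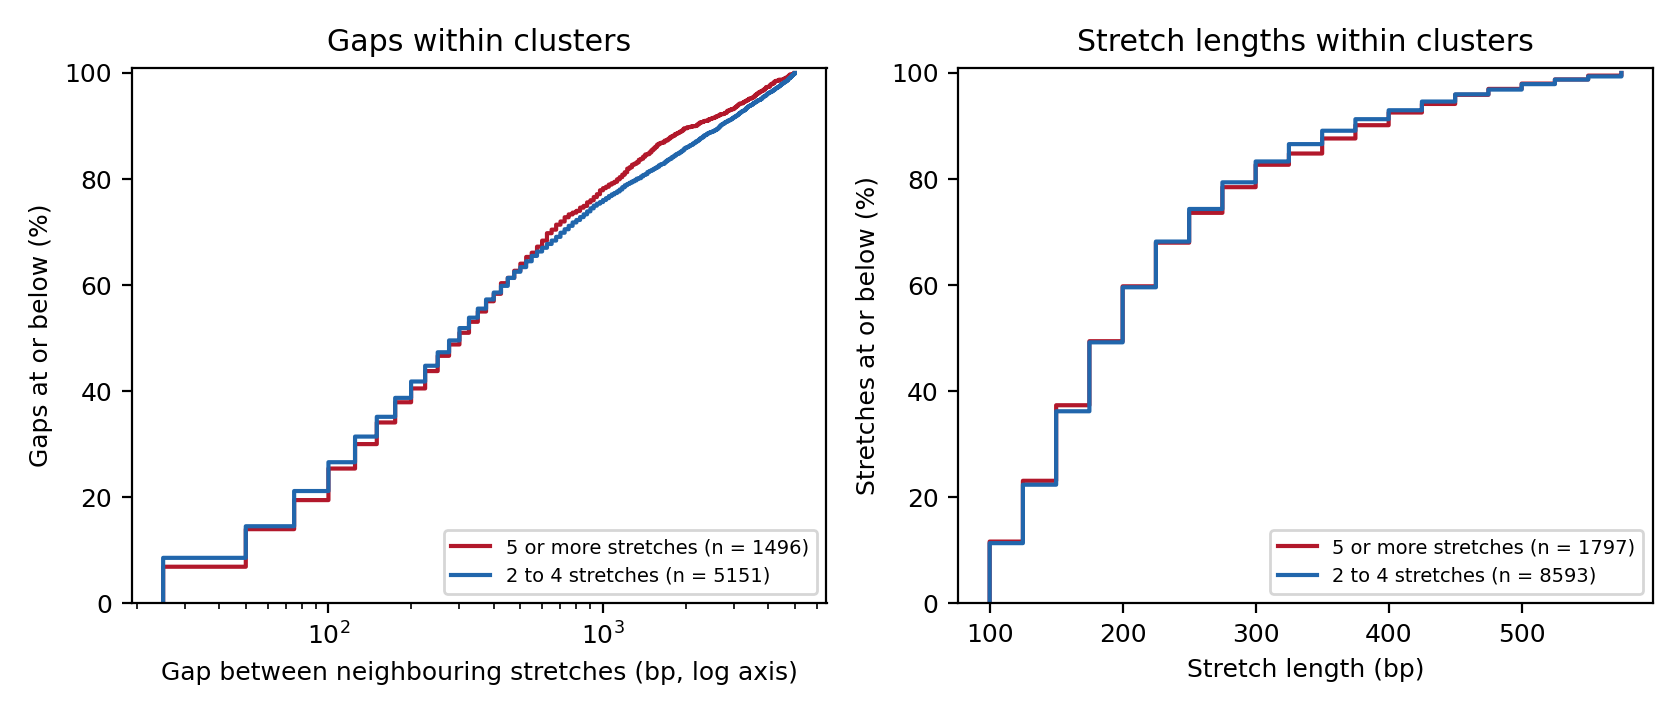
Cumulative percentage of gaps (left, bp on a log axis) and of stretch lengths (right, bp) in clusters of 5 or more stretches (red) and of 2 to 4 stretches (blue). The curves run close together for lengths and for gaps up to 500 bp (64.0% and 63.4% of gaps), and part slightly further above that.

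Span rose with the number of stretches. Its median was 4175 bp (3825 to 4675, n = 301) against 1125 bp (1100 to 1175, n = 3442) in clusters of 2 to 4. It was 775 bp with 2 stretches, 1550 bp with 3, 2725 bp with 4, 3262.5 bp with 5, 4437.5 bp with 6, 4850 bp with 7, 6000 bp with 8, 6187.5 bp with 9 and 9450 bp with 10. Each further stretch brings its own length and a gap, so a rise of this kind follows from the definition. Within 1 number of stretches the spread was wide. Clusters of exactly 5 spanned 1125 to 14100 bp, and the 75th percentile of clusters of 4, at 4725 bp, was above the median of clusters of 6.

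The median covered share was 31.1% in multi-site clusters (28.8 to 33.7, n = 301) and 48.3% in clusters of 2 to 4 (46.3 to 50, n = 3442). It stood at 57.1% with 2 stretches, 40.4% with 3 and 32.4% with 4. From 4 stretches on it lay between 28.1% and 34.3% up to 9 stretches, and was 19.9% in the 8 clusters of 10. At least 50% of the span was covered in 59 of 301 members (19.6%) and in 1686 of 3442 smaller clusters (49.0%). Because a cluster has 1 stretch more than it has gaps, few stretches give a high share by construction. A share that takes 1 mean stretch and 1 mean gap of each cluster removes the extra stretch, and its median was 27.1% in members and 35.3% in clusters of 2 to 4. This share still varied with the number of stretches, with medians of 40.0% at 2, 31.1% at 3, 26.4% at 4 and 28.7% at 5. With few gaps per cluster it is not a like-for-like comparison of the classes. The same measure from all stretches and gaps pooled was 23.0% in members and 21.0% in the smaller clusters, so for it the order of the classes turned. The covered share itself, pooled over clusters, kept the order, at 26.4% in members and 30.7% in the smaller clusters. It still counts the extra stretch of each cluster. The 10th and 90th percentiles of the covered share were 12.6% and 87.5% in the smaller clusters, against 15.1% and 57.7% in members. This spread, too, varied with the number of stretches. The percentiles were 12.3% and 90.9% at 2, 13.4% and 76.7% at 3, 12.5% and 66.0% at 4, and 14.7% and 60.7% at 5. The wider spread of the smaller clusters is thus not a like-for-like difference between the classes.

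**Figure D3:**
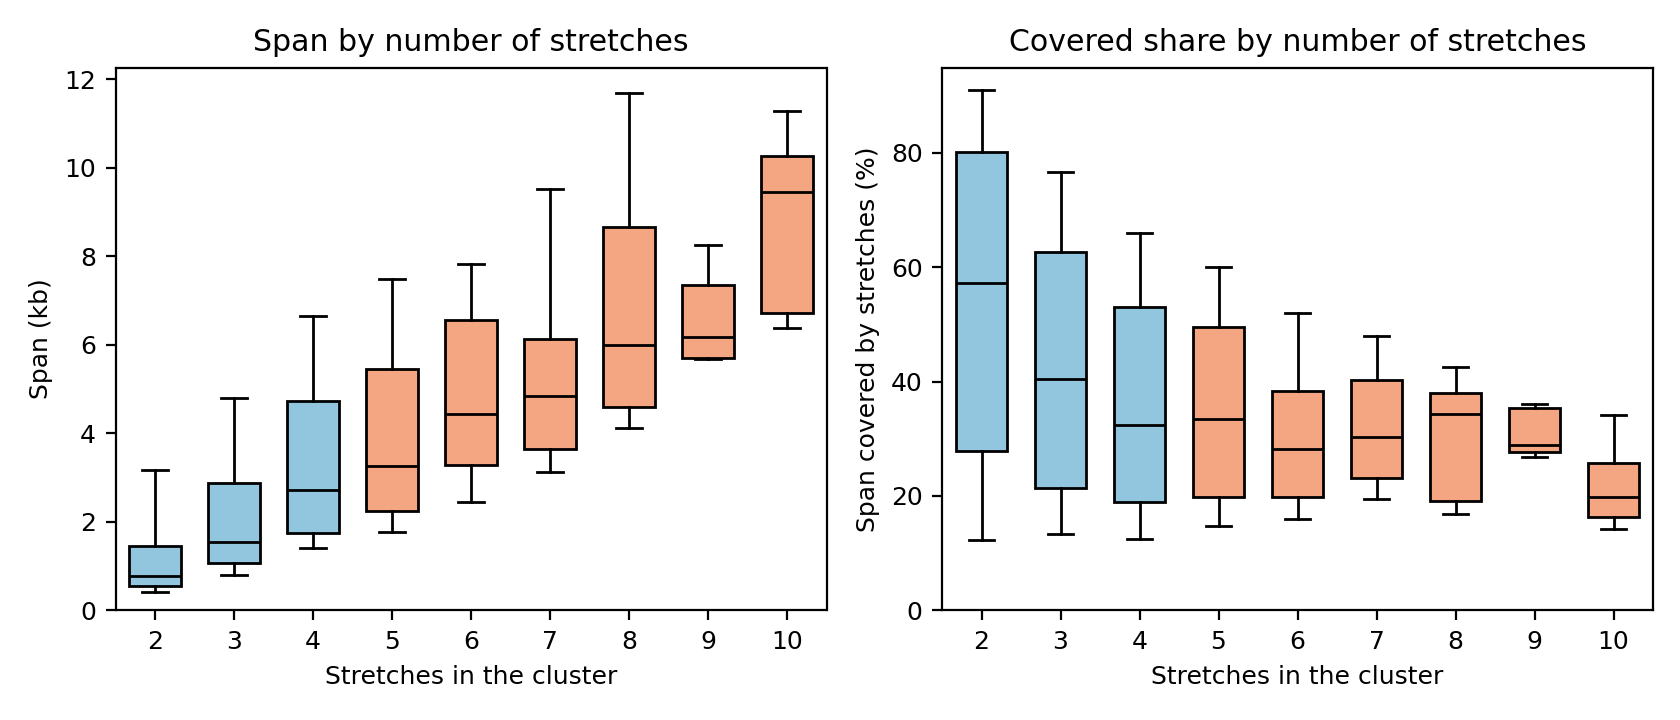
Span in kb (left) and covered share in percent (right) of clusters by number of stretches, blue for 2 to 4 and orange for 5 to 10, with boxes for the quartiles, a line for the median and whiskers to the outermost clusters within the 10th and 90th percentiles. The median span rises from 775 bp to 9450 bp, and the median covered share falls to 32.4% at 4 stretches and stays between 28.1% and 34.3% from there to 9.

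Gaps within a multi-site cluster were uneven. The widest gap held a median of 52.6% of all the uncovered length in a member (51.2 to 55.0, n = 301), and the gaps' coefficient of variation (SD divided by mean) had a median of 1.02. Smaller clusters had uneven gaps too, with a median coefficient of 0.93 at 4 stretches and 0.88 at 3, and their widest gap held 67.6% and 81.2%. Both measures depend on the number of gaps, so they do not compare evenness like for like. The highest coefficient was 1.40 at 3 stretches, 1.70 at 4 and 1.92 at 5. More even spacing is shown by the member on chromosome 7 at 109147351 to 109150000, with gaps of 425, 400, 475 and 225 bp, second in evenness to the cluster of chromosome 2 named above. At least 1 gap was 100 bp or less in 222 of 301 members (73.8%) and in 1231 of 3442 clusters of 2 to 4 (35.8%), a share that rises with the number of gaps a cluster has, since such gaps were 25.4% and 26.6% of all gaps. Members were divided into 3 layouts by their number of gaps over 1 kb, a division chosen after the values had been seen. Gaps over 1 kb were 21.7% of all gaps in members and 24.0% in clusters of 2 to 4. No gap over 1 kb was present in 67.6% of the clusters of 2 to 4, a share that falls with the number of gaps. Whether the counts of the layouts differ from a random placing of wide gaps was not tested.

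Compact members, with no gap over 1 kb, numbered 99 (32.9%, 27.6 to 38.5). They had a median span of 2400 bp, a median gap of 175 bp and a median covered share of 51.7%. Because wide gaps define the layouts, the differences in span, gap and covered share between them follow from the division. Members with exactly 1 gap over 1 kb numbered 115 (38.2%, 32.7 to 44.0), with a median span of 4375 bp and 29.6% covered. In 60 of these the wide gap set 1 stretch apart from the others, in 42 it set 2 apart, and in 13 both sides held at least 3. The 3 clusters with the most uneven gaps by coefficient of variation are of this layout, in which a single wide gap raises that coefficient. On chromosome 2 at 107130826 to 107137075, a stretch of 175 bp lay 4050 bp from 6 others whose gaps were 50 to 250 bp. On chromosome 2 at 119118701 to 119123900, groups of 5 and 3 were 2550 bp apart. On chromosome 11 at 77263076 to 77269900, groups of 2 and 8 were 3575 bp apart. By share of the widest gap, the highest member was instead 1 of 5 stretches on chromosome 6 at 119522151 to 119525700. Its widest gap held 97% of the uncovered length, and its coefficient was 1.92. The remaining 87 members (28.9%, 23.8 to 34.4) had 2 or more gaps over 1 kb, a median span of 7500 bp and 16.8% covered. Mean stretch length in the 3 layouts, in the same order, was 222.0 bp ± 106.0, 220.5 bp ± 108.0 and 215.4 bp ± 107.6 (SD over stretches).

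The rule did not use the order of stretches along a member. In the 265 members with a single longest stretch, it was at an end of the cluster in 84 (31.7%, 26.1 to 37.7), and end places were on average 35.1% of the stretch places in a member. It came first in 43 and last in 41, but without strand these ends cannot be read as the start or the end of a transcript. End stretches had a mean of 214.3 bp ± 103.3 (SD, n = 602) and inner ones 221.9 bp ± 109.1 (n = 1195). In the 296 members with a single widest gap, it lay next to an end stretch in 152 (51.4%, 45.5 to 57.2), and such places were on average 42.4% of the gap places in a member. Across the 1195 pairs of neighbouring gaps in members, Spearman's rho was 0.07, and across 1496 pairs of neighbouring stretches their lengths had a rho of 0.03. These pairs share stretches and clusters, and the values are a description. Stretches beside gaps of at most 100 bp had a mean length of 235.1 bp over 380 gaps, against 214.1 to 217.6 bp beside wider gaps. In clusters of 2 to 4 the corresponding means were 228.2 bp and 211.7 to 219.5 bp.

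Clusters became fewer with each added stretch up to 11. Under the limits on length and position there were 2112 clusters of 2 stretches, 951 of 3, 379 of 4, 154 of 5, 72 of 6, 34 of 7, 22 of 8, 10 of 9, 8 of 10 and 1 of 11. Of clusters with at least 2 stretches, 43.6% (42.0 to 45.2) had at least 3. Of those with at least 5, 48.8% (43.1 to 54.6) had at least 6. Over all 10653 clusters, without the limits, the corresponding shares were 46.7% (45.2 to 48.2) and 51.7% (46.9 to 56.4), and 63.0% (51.5 to 73.4) of those with at least 8 had 9 or more. The limits remove rich clusters by rule, so the 2 series part at the upper end.

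**Figure D4:**
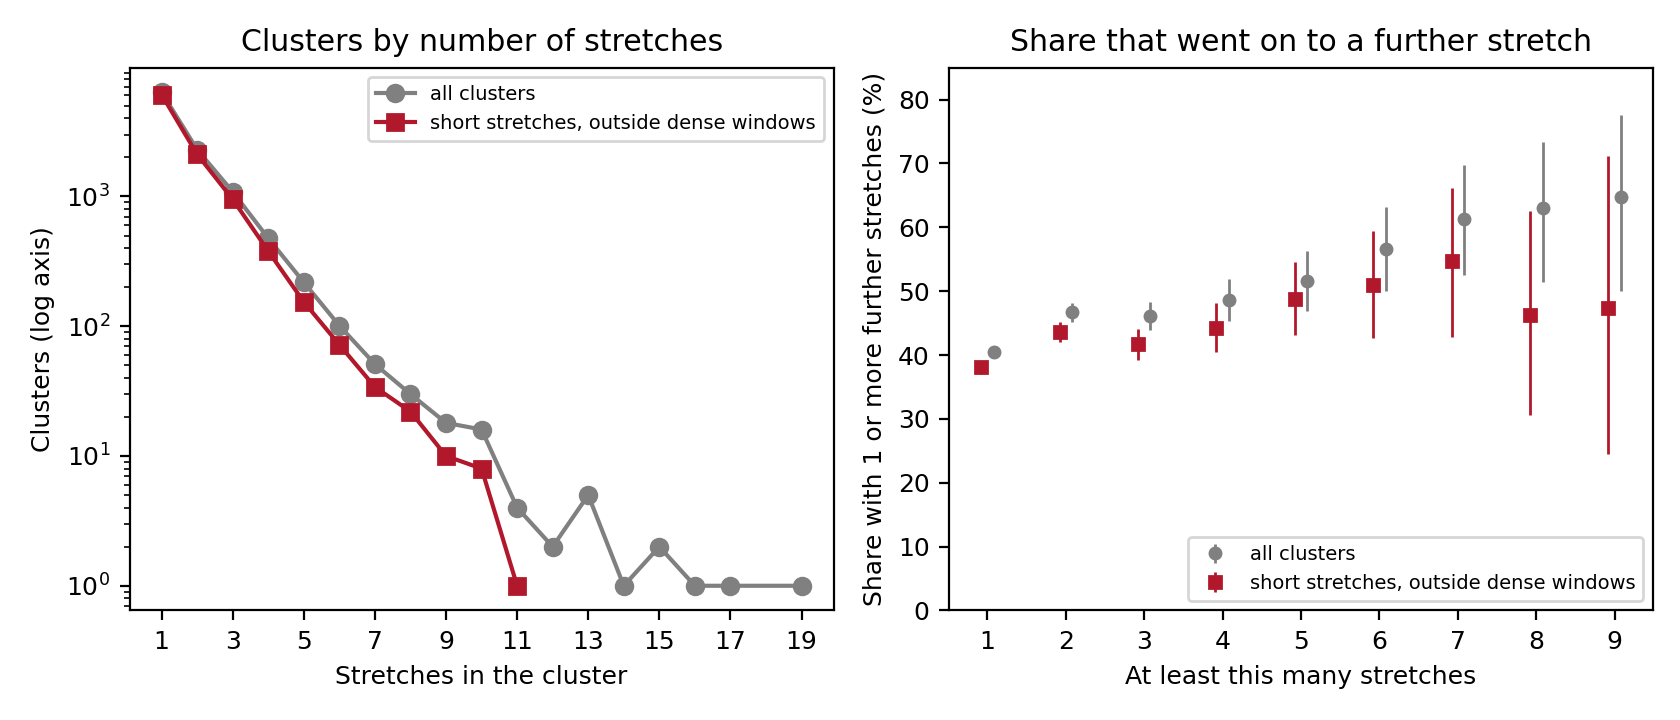
Left, number of clusters (log axis) by number of stretches, for all clusters (grey circles) and for those under the limits on length and position (red squares). Right, percentage of clusters with at least the given number of stretches that had 1 or more further, with exact binomial 95% intervals, plotted for 1 to 9 stretches. The red values plotted lie between 38.0% and 54.7%, and the grey ones rise from 46.1% at 3 stretches to 64.7% at 9.

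Members were found on every chromosome from 1 to 19, from 7 on chromosome 12 to 27 on chromosome 2. They held 9.49% of all stretches (exact binomial 95% interval 9.07 to 9.91), and 9.69% ± 2.28 as a mean over chromosomes (SD, n = 19). Chromosome 14 had the highest share, 99 of 654 stretches (15.1%, 12.5 to 18.1), and chromosome 12 the lowest, 42 of 764 (5.50%, 3.99 to 7.36). Counting every cluster of 5 or more, chromosome 12 again had the lowest share of stretches (6.15%), while chromosome 18 had the highest (23.2%) and chromosome 14 had 18.2%. Of the 20 such clusters on chromosome 18, 8 lay in the interval left out by the rule. Under the rule, its share was 9.09%. The median gap in members was lowest on chromosome 18 (175 bp, 10 members) and highest on chromosome 8 (625 bp, 13 members). The median covered share ran from 18.5% on chromosome 8 to 41.2% on chromosome 10 (14 members). These are the extremes of 19 chromosomes with few members each, given without intervals, and differences between chromosomes were not tested.

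**Figure D5:**
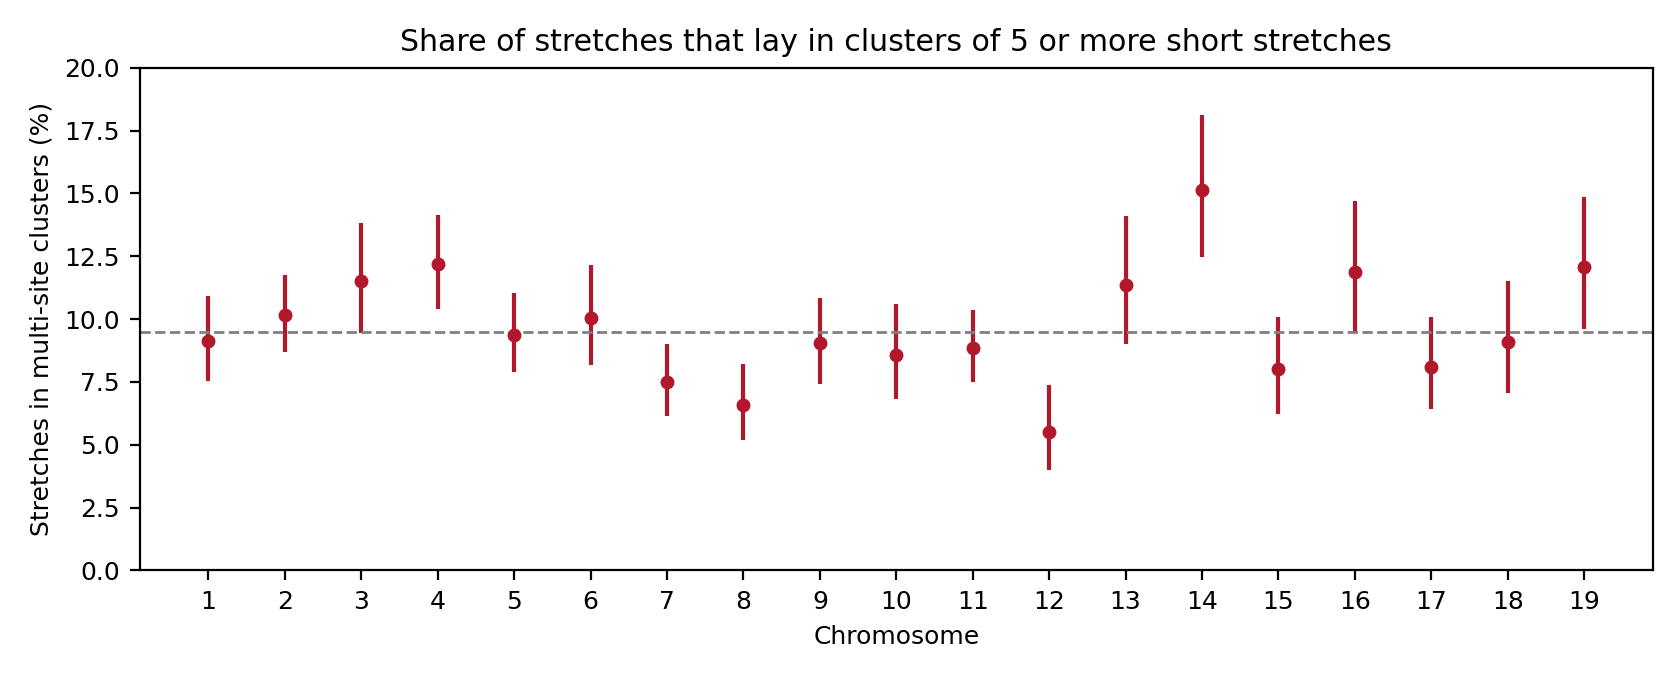
Percentage of each chromosome's stretches that lay in multi-site clusters, with exact binomial 95% intervals, and the value over all 19 chromosomes (dashed line, 9.49%). Chromosome 14 stands highest at 15.1% and chromosome 12 lowest at 5.50%.

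Distances to other enrichment lay in the same range for all sizes of cluster. The median distance from a member to the nearest other cluster was 32875 bp (27025 to 38200, n = 301), against 29262.5 bp (27400 to 31550, n = 3442) for clusters of 2 to 4 and 31575 bp (29925 to 32925, n = 6095) for single stretches. Another cluster lay within 10 kb of 46 members (15.3%, 11.4 to 19.9), of 641 clusters of 2 to 4 (18.6%, 17.3 to 19.96) and of 1042 single stretches (17.1%, 16.16 to 18.1). Leaving out dense windows limits how crowded the surroundings can be in all 3 classes, and it does so more for members, whose own rows count towards the 20.

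Several members sat close to a limit of the rule. There were 154 members with the minimum of 5 stretches, beside 379 clusters of 4. The longest stretch was 575 bp in 9 members, among them those on chromosome 2 at 91767451 to 91773600 and, with the stretch at the lower end, on chromosome 4 at 94716626 to 94718925. By contrast, 8 clusters outside dense windows were left out with a longest stretch of 600 bp. Windows of 19 rows held 13 members, and 8 clusters were left out in windows of 20. A gap of 5000 bp, the widest allowed, lay in the cluster on chromosome 9 at 20833926 to 20842100, where it set a stretch of 100 bp apart from 4 others, and a gap of 4950 bp did the same on chromosome 16 at 3979851 to 3987175 with a stretch of 150 bp. The nearest cluster outside a member was 5050 bp away.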

How the data were processed

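RNA of 3 MeRIP and 3 input libraries was sequenced, and 1 list of enriched regions was deposited for all of them. Its values are only positions in bp, with no count, score or other measured value. The mm9 build, SAMtools 0.1.18 and BWA 0.6.2-r126 are named, per the submitters' processing notes. The way peaks were called and replicates used was not given in the sources used here. These choices set which stretches are listed and where they break.

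From the deposited list, 29299 of 29950 rows on chromosomes 1 to 19 were merged where they touched and joined into clusters within 5 kb, with Python 3.11.15, numpy 2.4.6 and scipy 1.17.1. The code was tested on simulated data. Shares have exact (Clopper-Pearson) binomial 95% intervals and medians have order-statistic intervals. Without values per library, no test between groups was made, and genes and motifs, planned only for an mm9 reference, were not analysed.

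Members and measures were chosen with earlier results of these data known. Named clusters were the 5 with the most stretches, the 3 at each extreme of span, covered share and evenness of gaps, and those nearest the limits, 3 each for longest stretch and widest gap. Alternatives were other joining and merging distances, numbers of stretches, length limits, window rules and chromosomes.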

Additional observations from a re-analysis of the deposited data

Results flagged for a closer look

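Chromosome X, which the comparison did not use, held 12 clusters that met the same rule. They contained 66 of its 437 stretches (15.1%, exact binomial 95% interval 11.9 to 18.8), beside 5.50% to 15.1% on chromosomes 1 to 19. The median gap in them was 200 bp, the median stretch length 200 bp, the median span 2475 bp and the median covered share 40.8%, and the richest had 10 stretches. The unplaced contig assigned to chromosome 1 held 1 such cluster, at 329701 to 332300, with 5 stretches in 2600 bp and 51.9% covered. Both were picked out because they lie in data outside the comparison, and no difference from chromosomes 1 to 19 was tested. Under the same rule, 0 clusters were found among the 6 stretches of the mitochondrial chromosome.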

How the results depend on the processing

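Of 86 recomputed values, 58 stayed within 1.5 times the count or within the 95% interval reported, and 28 did not. In all 12 alternatives the span was longer and the covered share lower than in smaller clusters. Members have more stretches than the smaller clusters under every alternative, so both directions follow at least in part from the rule. The share from 1 mean stretch and 1 mean gap, pooled over all clusters, ran the other way (23.0% against 21.0%) and was not recomputed. The pooled covered share, which kept the order (26.4% against 30.7%), was not recomputed either. The median gap equalled that of smaller clusters in 11 of 13 and was larger in 2, joining within 2000 bp (250 against 225 bp) and stretches of 150 bp or more (325 against 300 bp). The median stretch length equalled that of smaller clusters in 9 of 13 and was lower in 4, at 175 or 187.5 bp against 200 bp. In the order number of clusters, median span, median gap, median covered share and share of stretches, joining within 10000 bp moved all but the number, to 7262.5 bp, 375 bp, 17.5% and 13.5%. Joining within 2000 bp moved the same ones, to 3125 bp, 250 bp, 39.2% and 6.90%. Merging rows within 100 bp gave 131 clusters, 5475 bp, 500 bp, 24.4% and 4.42%; it removes all gaps up to 100 bp by construction. A minimum of 4 stretches gave 680 clusters, 3387.5 bp and 17.5% of stretches, with the longest stretch at an end in 44.5%, where end places were on average 43.5% of a cluster's places (35.1% with a minimum of 5), and a minimum of 6 gave 147, 5275 bp and 5.42%. Stretches under 400 bp gave 171 clusters and 5.31% of stretches, and stretches of 150 bp or more gave 142, 5.58% and a median length of 225 bp. The share of stretches also moved to 11.6% with no length limit, 11.1% with no window left out and 6.98% with windows of 15 or more rows left out. Weighting each cluster equally, chosen after seeing the data, gave a median gap of 325 bp in both classes. Depth and transcript level limit which stretches are listed and are not known here. No paired analysis was possible because all libraries share 1 set of positions, which also prevents leaving a replicate out. Alternatives for gene overlap and motif were not run.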
